A study of Mus musculus with 6 samples.

Results

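Glycolysis splits glucose into pyruvate in the cytosol, and 10 genes of its enzymes that act before pyruvate kinase were examined in primary mouse chondrocytes after silencing of Pkm, the gene of pyruvate kinase. The genes were taken by symbol from the deposited table of 55416 genes. They were the hexokinases Hk1 and Hk2, the phosphoglucose isomerase Gpi1, the phosphofructokinases Pfkl and Pfkp, the aldolase Aldoa, the triosephosphate isomerase Tpi1, Gapdh, the phosphoglycerate kinase Pgk1 and the enolase Eno1. Aldoa stood on 2 rows, so that the 10 symbols gave 11 rows. The row of ENSMUSG00000030695 was used for Aldoa. The other, ENSMUSG00000114515, held 1.62 to 19.9 counts a library and did not pass the filter on low counts, while the other 10 rows passed it and were tested.

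The study asked what PKM2 does in chondrocytes, and sequenced RNA from 3 cultures with a scrambled control siRNA (siNC) and 3 with an siRNA against Pkm2 (siPkm2). All were unpassaged primary chondrocytes grown in DMEM/F12 with serum. The labels give neonatal knee joints as the tissue, while the supplementary methods describe adult mice. They give the siNC cultures the genotype WT and siPkm2 replicates 1, 2 and 3 the genotypes PKM2, PKM3 and PKM4 knockdown, although the titles of all 3 read siPKM2, and they were taken as siPkm2. Nothing in the sources used here says whether replicates came from separate mice, so that p-values measure the spread between these cultures, which may be technical. The silencing used transfected siRNA, of which the supplementary methods say that 1 was selected, and the counts per gene do not separate the splice forms PKM1 and PKM2.

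In the first steps of the pathway glucose is phosphorylated by a hexokinase, isomerised, and phosphorylated again by a phosphofructokinase, the main point of control. Aldolase and triosephosphate isomerase then make glyceraldehyde 3-phosphate, GAPDH oxidises it, phosphoglycerate kinase recovers ATP, and enolase makes the phosphoenolpyruvate that pyruvate kinase uses. Chondrocytes live in cartilage without blood vessels and rely on glycolysis for much of their ATP. Many glycolytic genes carry hypoxia response elements, short promoter sequences with the core ACGTG or GCGTG, at which hypoxia-inducible factors bind.

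The promoters of 4 members are shown: Pfkp and Eno1, the members that passed the test once replicates were paired, and Hk2 and Pgk1, the members in which the core ACGTG occurred more than once. Each run is the 250 bases before a RefSeq transcription start on GRCm38.p6, written 5′ to 3′ on the strand of the gene, with ACGTG or its reverse complement CACGT in capitals. The other form of the core, GCGTG, is not marked.
Hk2, chr6:82774455-82774704, minus strand: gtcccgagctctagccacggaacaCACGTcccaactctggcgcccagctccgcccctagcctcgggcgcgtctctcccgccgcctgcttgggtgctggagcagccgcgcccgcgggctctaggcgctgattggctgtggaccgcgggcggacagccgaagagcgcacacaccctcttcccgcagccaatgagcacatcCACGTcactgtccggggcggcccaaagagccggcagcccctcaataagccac
Pfkp, chr13:6648772-6649021, minus strand: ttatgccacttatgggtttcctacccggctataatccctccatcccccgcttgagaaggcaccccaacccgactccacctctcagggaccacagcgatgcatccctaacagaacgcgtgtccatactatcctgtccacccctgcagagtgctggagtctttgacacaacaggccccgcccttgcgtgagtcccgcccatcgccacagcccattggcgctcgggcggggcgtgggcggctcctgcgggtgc
Pgk1, chrX:106186850-106187099, plus strand: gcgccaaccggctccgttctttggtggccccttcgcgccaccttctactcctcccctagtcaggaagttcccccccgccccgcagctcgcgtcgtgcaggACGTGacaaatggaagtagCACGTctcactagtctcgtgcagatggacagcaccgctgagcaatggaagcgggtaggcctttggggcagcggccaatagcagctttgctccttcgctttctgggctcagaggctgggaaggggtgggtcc
Eno1, chr4:150236458-150236707, plus strand: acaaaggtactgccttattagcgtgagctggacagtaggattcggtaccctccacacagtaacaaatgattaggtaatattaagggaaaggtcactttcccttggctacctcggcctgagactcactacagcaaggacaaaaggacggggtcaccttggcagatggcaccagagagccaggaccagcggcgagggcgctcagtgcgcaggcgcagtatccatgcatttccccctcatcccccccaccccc

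In the Pgk1 window the core began 150 and 131 bases before the start, on opposite strands, and in the Hk2 window it began 226 and 52 bases before it. RefSeq listed 3 windows for Eno1, none with an ACGTG, and the start of the window shown lay 244 bases from that of the GENCODE transcript. Both strands searched, ACGTG occurred in the windows of 3 of the 10 members (Hk2, Aldoa and Pgk1) and in 16.6% of 32851 windows of all genes, and at least 2 copies occurred in 2 members and in 6.81% of all windows. The other form of the core, GCGTG, occurred in 4 members and 28.2% of all windows, and at least 2 copies in 2 members and 8.63% of all windows. Of the windows shown, that of Pfkp held it 136, 68 and 23 bases before the start and that of Eno1 230 bases before it. The windows of Hk2 and Pgk1 held none. The E-box CACGTG occurred in 0 members and 6.02% of windows, and the TATA sequence TATAAA in 0 members and 12.4%. CACGTG reads as ACGTG on both strands, so that an E-box counted as 2 copies of ACGTG. The 6.81% of windows with at least 2 copies thus includes windows with an E-box, whereas the copies in Hk2 and Pgk1 were separate. The 2 values are therefore not a like comparison. These matches describe letters in the window and were not tested as binding sites.

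Libraries held 22317028 to 25691059 counts, and the counts of the 10 tested members ran from 1225 (Hk2, siNC replicate 3) to 66085 (Eno1, siPkm2 replicate 2), so that counting error was small beside the spread between cultures. Pkm, the targeted gene, stood at 1654, 2209 and 1293 TPM (a level scaled for gene length and library size) in siNC replicates 1, 2 and 3 and at 245, 428 and 231 TPM in siPkm2 replicates 1, 2 and 3, which matched the titles. Chondrocyte markers were present, with Col2a1 at 3015 to 11904 TPM, and the macrophage markers Ptprc, Adgre1, Itgam and Fcgr1 lay at or near 0 in every library. Replicate 2 of both groups stood apart. The summed level of 10 inflammatory genes was 34424 TPM in siNC replicate 2 and 32299 TPM in siPkm2 replicate 2, against 52.4 to 372 TPM in the other 4 libraries, and the summed level of 10 chondrocyte markers was 4047 and 5451 TPM against 15314 to 18842 TPM. Summed macrophage markers, led by Cd68, were 118 and 87.6 TPM in replicate 2 against 10.6 to 26.4 TPM in the other libraries. Fibroblast markers summed to 1551 to 4782 TPM without such a split. Osteoblast markers summed to 337, 47.6 and 225 TPM in siNC and 139, 45.9 and 72.3 TPM in siPkm2, lower in siPkm2 in each pair and low in replicate 2. Ibsp alone stood at 267, 17.7 and 166 TPM in siNC and 89.7, 11.7 and 35.9 TPM in siPkm2. Runx2 was not low in replicate 2, at 17.3, 16.5 and 18 TPM in siNC and 13.3, 13.8 and 13.7 TPM in siPkm2. Alpl was higher in siPkm2 in pair 2, at 17.1 against 7.31 TPM. Endothelial and red cell markers summed to 20.8 TPM or less in every library. A list of 14 interferon-stimulated genes also differed with the group, at 79.2, 3411 and 125 TPM in siNC and 2386, 6768 and 1732 TPM in siPkm2. The part of these differences in the results below was not tested.

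The 10 enzymes together made up 1.19%, 1.07% and 0.99% of all TPM in siNC and 1.24%, 1.34% and 1.16% in siPkm2. Their levels spanned a wide range in the siNC cultures, from Gapdh at 5073 ± 774 TPM (SD, n = 3) to Hk2 at 23.8 ± 8.0 TPM. The members from aldolase on were more abundant than the members of the earlier steps. Aldoa stood at 1714 ± 205, Eno1 at 1512 ± 199, Pgk1 at 1006 ± 137 and Tpi1 at 880 ± 75 TPM, whereas Gpi1 stood at 307 ± 122, Pfkl at 118 ± 7.65, Hk1 at 64.6 ± 31.7 and Pfkp at 54.6 ± 18.8 TPM. Neighbours in this order whose ranges overlapped were Aldoa and Eno1, Pgk1 and Tpi1, and Hk1 and Pfkp. In siPkm2 the order was the same apart from the exchange of Aldoa and Eno1. Aldoa exceeded Eno1 in 2 of 3 siNC libraries, and Eno1 exceeded Aldoa in 3 of 3 siPkm2 libraries, although their ranges over libraries overlapped in both groups.

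**Figure D1:**
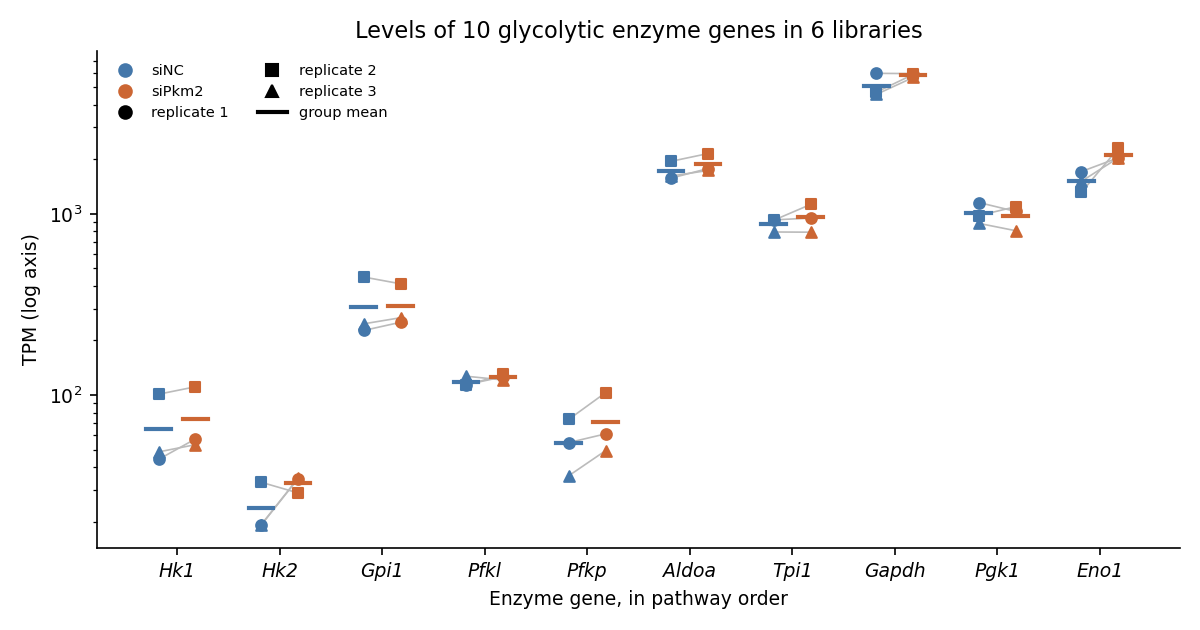
Levels of the 10 enzyme genes in pathway order, in TPM on a log axis; blue marks are siNC and orange marks siPkm2 cultures, the marker shape gives the replicate, grey lines join libraries of the same replicate number and bars are group means (n = 3). The genes from Aldoa on lie between 792 and 5964 TPM and those before it between 19.1 and 448 TPM, and only for Eno1 do the groups separate.

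The first question was whether loss of Pkm moved the enzymes upstream of it. In siPkm2 cultures, 9 of the 10 members had a higher fitted level than in siNC, with a median log2 fold change of 0.23 and a range from -0.01 for Pgk1 to 0.58 for Eno1. Over all 15270 genes tested the median was -0.02, and 48.1% were higher. In counts scaled to library size (CPM), 6 of the 10 members were higher in siPkm2 in all 3 replicate pairs, as were 30.5% of the genes tested. On that scale 0 members were lower in all 3, as were 30.6% of the genes. The 6 included Tpi1, whose log2 CPM difference in pair 1 was 0.00. In TPM, Tpi1 was lower in siPkm2 in pair 3 (792 against 794) and Gapdh in pair 1 (5945 against 5964). No member passed an adjusted p of 0.05 in the edgeR quasi-likelihood test without pairing, in which 0 of 15270 genes (0%) passed. At an unadjusted p under 0.05 there were 2691 genes (17.6%) and 1 member, Eno1. DESeq2 without the block passed 824 of 15978 genes, and 0 of the 10 members. Pkm itself had a log2 fold change of -2.51 (SE 0.33) with an edgeR adjusted p of 0.0739.

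Libraries with the same replicate number varied together, and when the replicate number was added to the edgeR model as a block, 3522 genes (23.1%) had an adjusted p under 0.05, with 1874 higher in siPkm2 (12.3%) and 1648 lower (10.8%). Of the 10 members, 2 passed, both higher (Eno1 and Pfkp), and 0 were lower. A count of 2 in 10 members lies near the share of all genes that were higher. The study's rule, which also asks for a fold over 2, was met by 890 genes (5.83%) and by 0 members. Pkm fell by 2.53 on the log2 scale (SE 0.13, edgeR adjusted p = 0.00941 with the block). Without replicate 2 of both groups, a fit of 2 pairs with the block added after the data were seen, 5940 of 15185 genes (39.1%) passed, 3009 of them higher (19.8%), and 4 members passed, all higher: Hk1, Hk2, Pfkp and Eno1. Without replicate 1 of both groups, or without replicate 3 of both, 0 genes passed (0%), with 3936 and 3601 genes at an unadjusted p under 0.05. In bulk RNA, fewer cells of a type and less RNA per cell cannot be told apart.

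**Figure D2:**
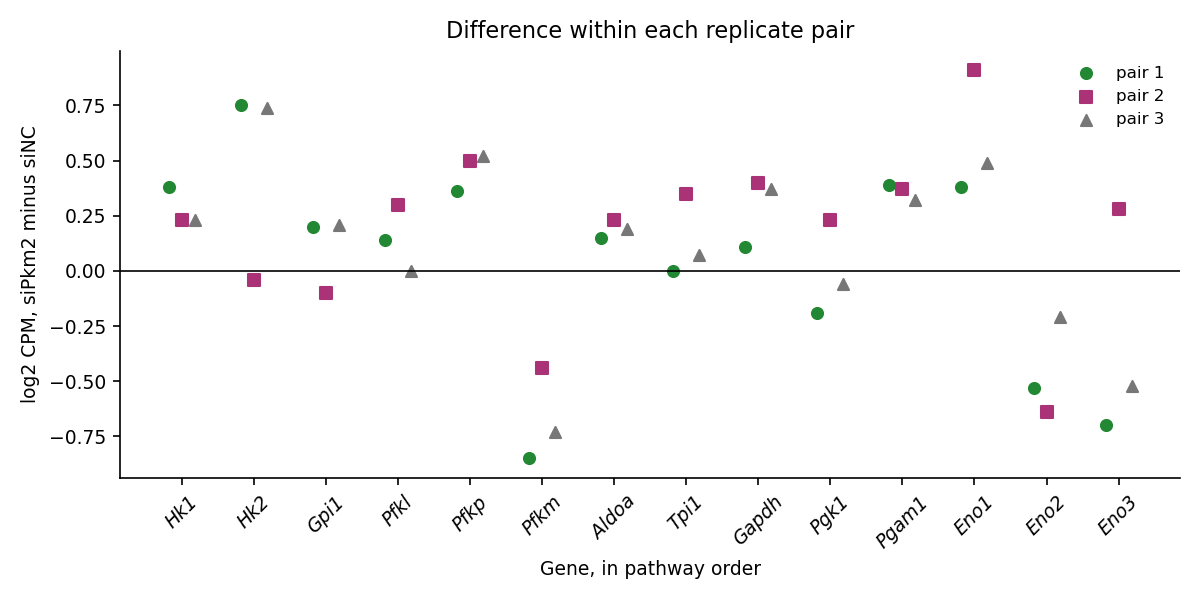
Difference in log2 CPM (siPkm2 minus siNC, CPM scaled by TMM factors, pseudocount 0.5; CPM is a count scaled to library size, not to gene length) within each pair of libraries with the same replicate number, for the members and for Pfkm, Pgam1, Eno2 and Eno3, in pathway order. Pfkp, Pgam1 and Eno1 lie above 0 and Pfkm and Eno2 below 0 in all 3 pairs, and the Hk2 mark of pair 2 lies near 0, at -0.04, while pairs 1 and 3 lie at 0.75 and 0.74.

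Eno1 (ENSMUSG00000063524, chr4:150236721-150248879, plus strand on GRCm38) encodes alpha-enolase, the enzyme that supplies the substrate of pyruvate kinase. It showed the highest fold change among the members. Its level was 1711, 1313 and 1511 TPM in siNC replicates 1, 2 and 3 and 2038, 2298 and 2037 TPM in siPkm2. All 3 siPkm2 libraries lay above all 3 siNC libraries, which held for 1826 of the genes tested (12.0%) and for 1 member. The difference was 0.38, 0.91 and 0.49 on the log2 CPM scale in pairs 1, 2 and 3, a fold of 1.30, 1.88 and 1.40. With the block the fold was 1.51 (log2 0.59, SE 0.14, 95% interval 0.24 to 0.94, edgeR adjusted p = 0.0373). Without the block the edgeR adjusted p was 0.243, and the exact permutation test over libraries gave p = 0.1, the smallest that 3 against 3 allows. In pair 2, siNC held the lowest and siPkm2 the highest level of the 6 libraries. Without replicate 2 of both groups the log2 fold change was 0.42 (edgeR adjusted p = 0.0179).

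Pfkp (ENSMUSG00000021196, chr13:6579768-6648777, minus strand) encodes the platelet-type phosphofructokinase, an isozyme of the committed step of glycolysis. Its level was 54.6, 73.3 and 35.8 TPM in siNC and 61.0, 103 and 49.3 TPM in siPkm2. The groups overlapped, and the level differed more between replicate numbers than between groups, but siPkm2 was higher in 3 of 3 pairs. The log2 CPM differences of pairs 1, 2 and 3 were 0.36, 0.50 and 0.52. The edgeR log2 fold change was 0.46 in both fits, with an SE of 0.35 and an adjusted p of 0.545 without the block and an SE of 0.08 and an adjusted p of 0.0207 with it. The call therefore rested on the pairing, and without replicate 2 of both groups the value was 0.43 (edgeR adjusted p = 0.0096). Without the block it moved from 0.46 to 0.16 when siPkm2 replicate 2 was left out and to 0.73 when siNC replicate 2 was left out.

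Pfkl (ENSMUSG00000020277, chr10:77986947-78010083, minus strand), the liver-type isozyme, had the narrowest relative range of TPM over the 6 libraries among the members. It stood at 114, 113 and 127 TPM in siNC and 126, 130 and 121 TPM in siPkm2, with a log2 fold change of 0.15 (95% interval -0.09 to 0.38, edgeR adjusted p = 0.301 with the block).

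The hexokinases commit glucose to the cell. Hk2 (ENSMUSG00000000628, chr6:82725025-82774454, minus strand), the inducible isozyme, stood at 19.1, 33.0 and 19.2 TPM in siNC and 34.5, 28.8 and 34.7 TPM in siPkm2. In pairs 1 and 3 it was 1.68-fold and 1.67-fold higher in siPkm2, and in pair 2 the fold was 0.98 on the CPM scale. The log2 fold change with the block was 0.49 (SE 0.18) with an edgeR adjusted p of 0.0995. Without replicate 2 of both groups the blocked value was 0.74 (edgeR adjusted p = 0.00102).

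Hk1 (ENSMUSG00000037012, chr10:62268855-62379908, minus strand), the constitutive isozyme, stood at 44.1, 101 and 48.5 TPM in siNC and 57.2, 111 and 53.2 TPM in siPkm2. Replicate 2 held the highest level of both groups, and the groups overlapped. The differences of the 3 pairs were small and alike, at 0.38, 0.23 and 0.23 on the log2 CPM scale. The log2 fold change with the block was 0.28 (SE 0.08, edgeR adjusted p = 0.0627). It thus just missed the threshold, and without replicate 2 it was 0.30 (edgeR adjusted p = 0.0312).

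Gpi1 (ENSMUSG00000036427, chr7:34201330-34230336, minus strand), which turns glucose 6-phosphate into fructose 6-phosphate, stood at 227, 448 and 247 TPM in siNC and 252, 411 and 267 TPM in siPkm2. Like Hk1 it was highest in replicate 2 of both groups, where the order of siNC and siPkm2 was also the opposite of that in the other pairs. The log2 fold change was 0.10 with a 95% interval of -0.16 to 0.37 (edgeR adjusted p = 0.491 with the block).

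Among the abundant enzymes of the lower steps, Gapdh (ENSMUSG00000057666, chr6:125161715-125166467, minus strand), often used as a reference gene, stood at 5964, 4693 and 4562 TPM in siNC and 5945, 5880 and 5658 TPM in siPkm2. The siPkm2 libraries lay close together near the highest siNC library. The log2 CPM differences were 0.11, 0.40 and 0.37, and the log2 fold change with the block was 0.29 (SE 0.11, 95% interval 0.01 to 0.58, edgeR adjusted p = 0.118). DESeq2 with the block, which passed 3866 of 15017 genes (25.7%), gave Gapdh an adjusted p of 0.0429.

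Aldoa (chr7:126795234-126800751, minus strand), which cleaves fructose 1,6-bisphosphate, stood at 1575, 1950 and 1617 TPM in siNC and 1779, 2152 and 1736 TPM in siPkm2. It was higher in siPkm2 in 3 of 3 pairs, by 0.15, 0.23 and 0.19 on the log2 CPM scale, an even but small difference (log2 fold change 0.19, SE 0.09, edgeR adjusted p = 0.183 with the block). Tpi1 (ENSMUSG00000023456, chr6:124810586-124814296, minus strand) interconverts the triose phosphates and stood at 925, 922 and 794 TPM in siNC and 949, 1127 and 792 TPM in siPkm2, so that the groups differed mainly in replicate 2. Its log2 fold change was 0.14 (95% interval -0.13 to 0.42, edgeR adjusted p = 0.373 with the block).

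Pgk1 (ENSMUSG00000062070, chrX:106187100-106203699, plus strand), the first ATP-forming enzyme, was the member nearest to no difference. It stood at 1155, 978 and 886 TPM in siNC and 1031, 1095 and 807 TPM in siPkm2, lower in pairs 1 and 3 and higher in pair 2. The log2 fold change was -0.01 in both fits, with a 95% interval of -0.30 to 0.29 with the block (edgeR adjusted p = 0.973). Neighbouring steps thus had different estimates, with Pgk1 near 0 and Eno1 at 0.59, and the difference between those genes was not tested. Rows named as retrogene or pseudogene copies took at most 0.354% of the counts of Eno1 and 0.0796% of those of Gapdh. For Aldoa the 1 further row with counts was not such a copy but its second row, ENSMUSG00000114515, annotated as protein-coding, with at most 0.0669%. Few reads were thus assigned to these rows.

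**Figure D3:**
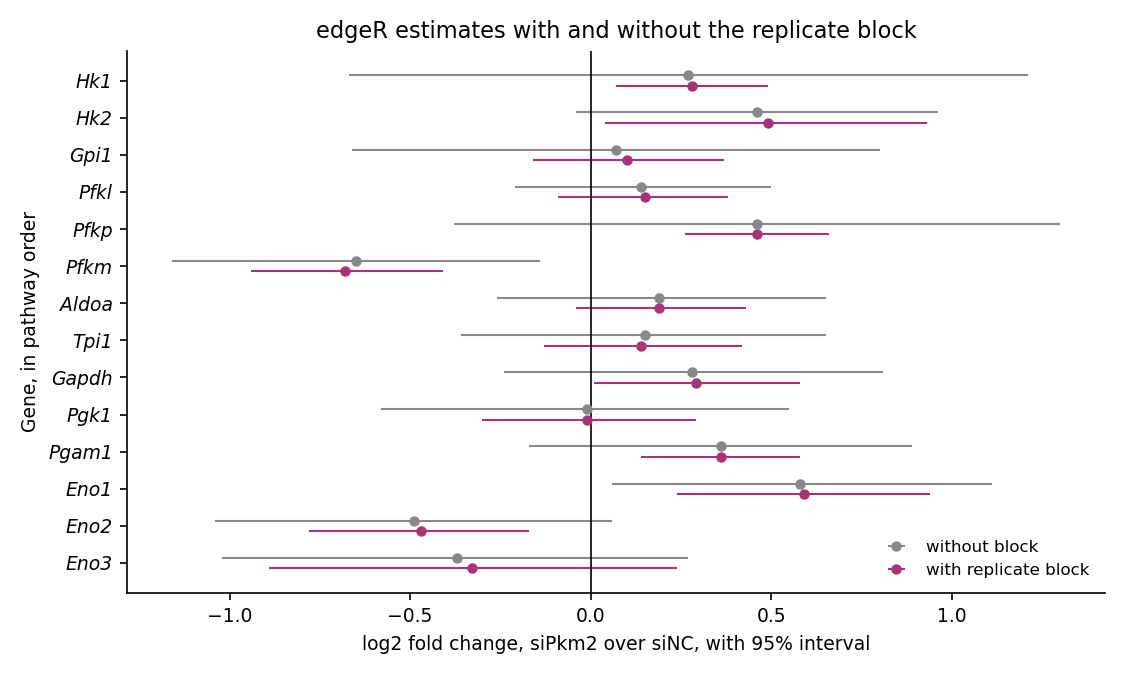
edgeR log2 fold changes (siPkm2 over siNC) with 95% intervals, without the replicate block in grey and with it in purple, for the members and for Pfkm, Pgam1, Eno2 and Eno3. Estimates hardly move between the fits and the intervals narrow with the block, for Pfkp from -0.38 to 1.30 down to 0.26 to 0.66.

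Replicate 2 also differed from the other cultures in the level of some enzymes. Hk1 was 2.01-fold above the mean of replicates 1 and 3 in siNC and 1.91-fold above it in siPkm2 (differences of log2 CPM of 1.01 and 0.93). Gpi1 was 1.78-fold and 1.44-fold above it and Pfkp 1.65-fold and 1.73-fold. Other members differed less, among them Pfkl of the upper steps, at 0.85-fold and 0.99-fold. Of the lower steps, Aldoa stood at 1.13-fold and 1.17-fold, Gapdh at 0.86-fold and 0.96-fold, Tpi1 at 0.99-fold and 1.23-fold and Pgk1 at 0.89-fold and 1.14-fold. Eno1 was 0.77-fold in siNC and 1.08-fold in siPkm2, and Hk2 went the other way, with 1.50-fold in siNC and 0.87-fold in siPkm2. With 1 such library in each group, these differences have no replicate and were not tested.

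**Figure D4:**
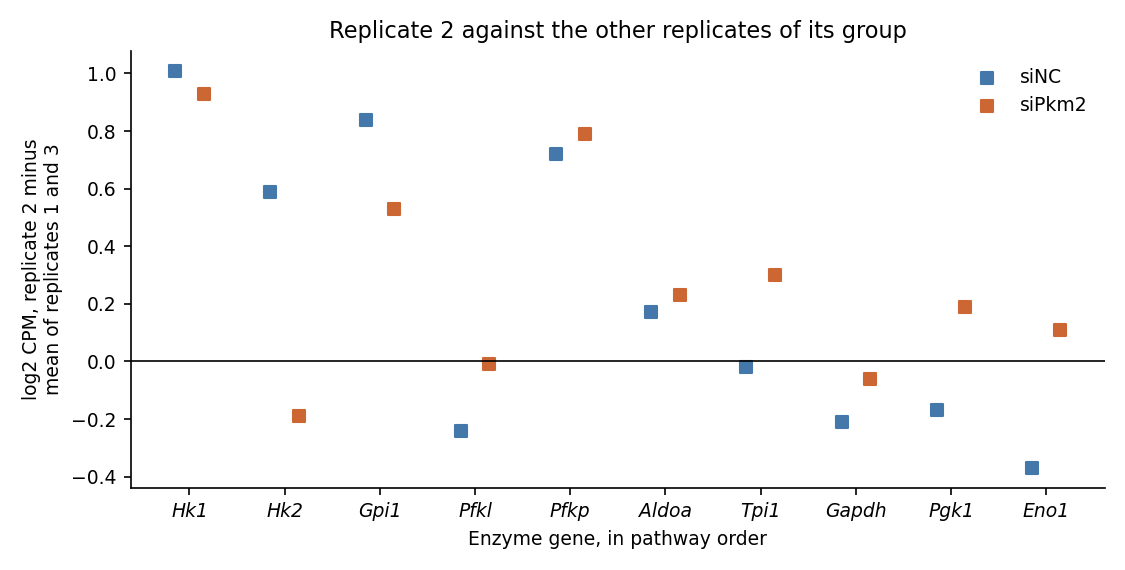
Level of each member in replicate 2 minus the mean of replicates 1 and 3 of its own group, in log2 CPM, in siNC (blue) and siPkm2 (orange). Hk1, Gpi1 and Pfkp lie at 0.53 or above in both groups, and Hk2, Tpi1, Pgk1 and Eno1 lie on opposite sides of 0 in the 2 groups.

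Other genes of the same steps gave calls in both directions. Of 15 further glycolytic genes, 10 were tested, and with the block 1 passed as higher and 3 as lower, with a median log2 fold change of -0.39 without the block. Over all genes 12.3% passed as higher and 10.8% as lower with the block. Pgam1, the main phosphoglycerate mutase, rose from 483, 658 and 460 TPM to 644, 817 and 543 TPM (log2 fold change 0.36, SE 0.09, edgeR adjusted p = 0.0381 with the block). Pfkm, the muscle-type phosphofructokinase, fell from 41.5, 56.4 and 43.8 TPM to 23.1, 39.5 and 25 TPM, with no overlap between groups (log2 fold change -0.68, SE 0.11, edgeR adjusted p = 0.017 with the block). Non-overlapping lower levels were found for 1881 genes (12.3%). The 7 muscle markers summed to 13.5, 9.38 and 12 TPM in siNC and 6.58, 8.36 and 9.1 TPM in siPkm2. They did not move together: in TPM, Tnnt3 and Acta1 were lower without overlap, and Myog and Ckm lay at or near 0. Des was higher without overlap, at 0.31, 2.52 and 0.57 TPM in siNC and 3.33, 4.37 and 6.01 TPM in siPkm2. The part of the muscle markers in the Pfkm value was not tested. Eno2, the neuronal enolase, fell from 22.2, 30.3 and 18.3 TPM to 18.6, 17.5 and 15.6 TPM (log2 fold change -0.47, SE 0.12, edgeR adjusted p = 0.0456 with the block). Gapdhs, the sperm form of GAPDH, lay at 8.55 TPM or less and also fell (log2 fold change -0.89, edgeR adjusted p = 0.0318 with the block). The minor isozymes Aldoc and Eno3 did not pass, and Pgk2 was at 0 in all 6 libraries.

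Isozyme shares within a library do not depend on its scaling. Pfkm made up 19.7%, 23.3% and 21.2% of phosphofructokinase TPM in siNC and 11%, 14.5% and 12.8% in siPkm2, a share chosen after the values were seen and given without a test. Pfkp made up 24.5% ± 6.56 (SD, n = 3) in siNC and 30.7% ± 6.45 in siPkm2, higher in 3 of 3 pairs, and the exact permutation test gave p = 0.5 (adjusted p = 0.6 over 4 ratios). Hk2 made up 27.1% ± 3.09 of hexokinase TPM in siNC and 32.4% ± 10.4 in siPkm2 (exact permutation p = 0.6, adjusted p = 0.6). In siPkm2 that share was 37.4%, 20.4% and 39.4%, so that replicate 2 lay apart. The ratios Hk2 over Hk1 and Pfkp over Pfkl gave exact permutation p = 0.6 and p = 0.5. Eno1 supplied 97.4% ± 0.36 of enolase TPM in siNC and 98.6% ± 0.0816 in siPkm2, and Aldoa 98.6% ± 0.80 and 98.8% ± 0.801 of aldolase TPM. Like that of Pfkm, the shares of Eno1 and Aldoa were added to the 4 planned ratios and are given without a test.

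**Figure D5:**
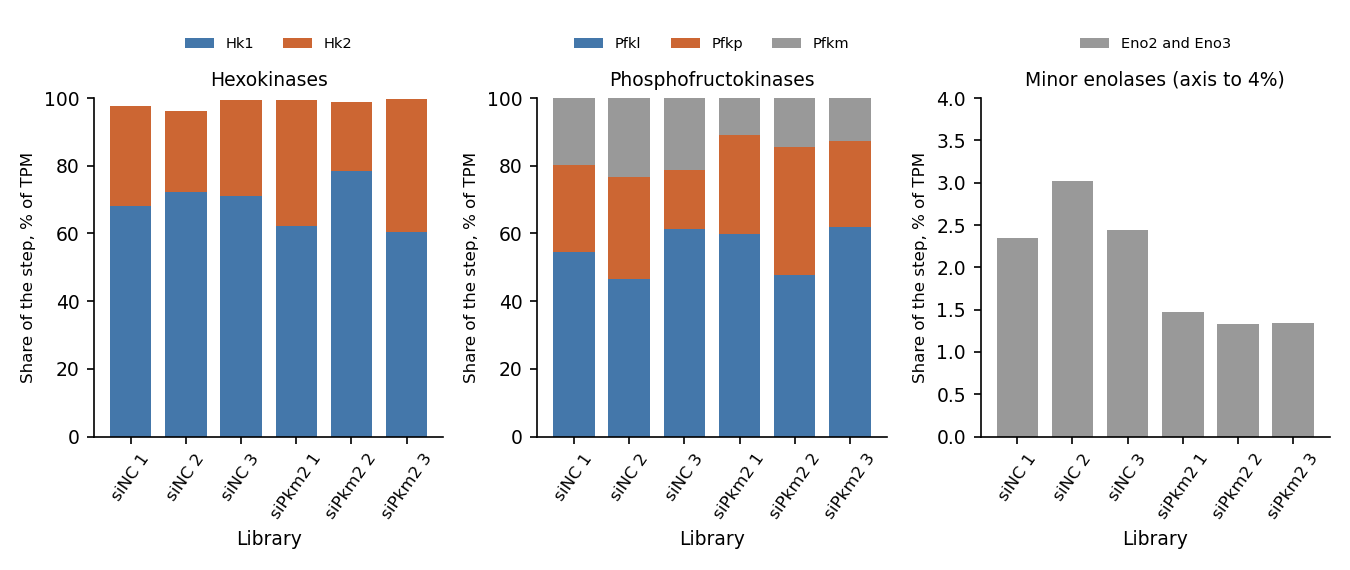
Share of each isozyme in the TPM of its step, in percent, in the 6 libraries, for hexokinases, phosphofructokinases and, on an axis that ends at 4%, the minor enolases Eno2 and Eno3. Pfkm falls from 19.7% to 23.3% in siNC to 11% to 14.5% in siPkm2, and the minor enolases from 2.35% to 3.02% down to 1.33% to 1.47%. The shares of Hk1, Pfkl, Pfkm and the minor enolases were added to the planned ratios and were not tested.

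Summed over the isozymes of each step, hexokinase stood at 90.8 ± 42.3 TPM (SD, n = 3) in siNC and 107 ± 29.7 TPM in siPkm2, and phosphofructokinase at 220 ± 19.8 and 226 ± 40.5 TPM. The higher Pfkp and lower Pfkm values thus left the sum of that step within the spread between cultures (exact permutation p = 0.9). Enolase stood at 1552 ± 199 TPM in siNC and 2154 ± 152 TPM in siPkm2, and it was the sole step before pyruvate kinase whose groups did not overlap. Pyruvate kinase fell from 1719 ± 461 to 301 ± 110 TPM. The levels of enolase and pyruvate kinase overlapped in siNC, and in siPkm2 enolase exceeded pyruvate kinase in every library. Both steps had an exact permutation p of 0.1, the smallest the design allows, which became 0.5 when adjusted over the 10 steps. The other 8 steps had exact permutation p-values of 0.3 to 0.9.

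Regulators of the pathway gave no call. Of 8 regulators, such as Pfkfb3, which makes the activator of phosphofructokinase, 6 were tested and 0 passed in edgeR with the block, where 2 had an unadjusted p under 0.05, or in DESeq2 with the block. Over all genes 23.1% passed in edgeR with the block and 25.7% in DESeq2 with the block. Pfkfb3 was highest in replicate 2 of both groups, at 111 and 134 TPM against 54.2 to 59.2 TPM elsewhere. Beyond pyruvate kinase, 13 of 14 genes were tested, and with the block 1 was higher and 3 were lower, Pkm included. Over all genes 12.3% passed as higher and 10.8% as lower. Pdhb, a subunit of pyruvate dehydrogenase, was higher (log2 fold change 0.30, edgeR adjusted p = 0.0491 with the block). Mpc2, a subunit of the mitochondrial pyruvate carrier, and Pdk1, a kinase that inhibits pyruvate dehydrogenase, were lower (log2 fold changes -0.41 and -0.43, edgeR adjusted p = 0.0397 and 0.0375 with the block). Ldha, the main lactate dehydrogenase gene, had a log2 fold change of 0.29 (edgeR adjusted p = 0.0929 with the block).

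Of 18 genes of the hypoxia response and of glucose and lactate transport, 2 passed as higher and 4 as lower with the block. Over all genes 12.3% passed as higher and 10.8% as lower. In CPM, 6 of the 18 were higher in all 3 replicate pairs and 6 were lower in all 3, as were 30.5% and 30.6% of all genes. The higher genes were both transporters: the glucose importer Slc2a1, at 89.5, 184 and 89.4 TPM in siNC and 141, 218 and 112 TPM in siPkm2 (log2 fold change 0.45, edgeR adjusted p = 0.0309), and the monocarboxylate carrier Slc16a1 (log2 fold change 0.74, edgeR adjusted p = 0.0341). The lower genes were Epas1, which encodes HIF-2alpha, and the hypoxia-responsive genes Ndrg1, P4ha2 and Car9, with log2 fold changes of -0.58, -0.61, -0.46 and -1.34 (edgeR adjusted p = 0.038, 0.0184, 0.0316 and 0.0133 with the block). Hif1a did not pass (log2 fold change 0.31, edgeR adjusted p = 0.0673 with the block). Ankrd37 and Ero1a, also on this list, were among those higher in 3 of 3 pairs and did not pass. Their log2 fold changes were 0.68 and 0.37 (edgeR adjusted p = 0.0859 and 0.104 with the block).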

How the data were processed

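RNA-seq libraries of 3 siNC and 3 siPkm2 cultures were grouped by the titles of the samples. For each gene the authors deposited raw estimated counts, in part fractional, and TPM values, scaled by the authors within each library for gene length and depth. Columns of the authors' own comparison (fold changes and p-values) and group means were not used. The submitters' processing notes name mm9 and edgeR; the aligner and counter are not given in the sources used here. Identifiers are Ensembl genes, and positions come from GENCODE M21 on GRCm38. TPM keeps no depth, so precision was judged from the counts.

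Estimated counts were rounded to whole numbers. In R 4.3.3 with edgeR 4.0.16, genes were kept by filterByExpr (15270 genes), scaled by TMM factors and compared by the quasi-likelihood test. P-values were adjusted by Benjamini-Hochberg over every tested gene, and a gene passed at an adjusted p under 0.05. The study's rule adds a fold over 2. No block is named in the methods, so the fit without it came first. Deviations from group means of libraries with the same number correlated at 0.717, 0.794 and 0.720 across genes, and at 0.217 or below for different numbers, so the numbers were taken to pair the libraries, and blocked values stand beside each result whose call they change. No pair of libraries within a group was a duplicate (53.0% to 73.2% of genes differed beyond sampling noise). Step sums and isozyme ratios of TPM were compared by two-sided exact permutation tests. Alternatives were other factors (RLE, upper-quartile), DESeq2 1.42.0, limma 3.58.1 on log2(TPM + 1) and log2(TPM + 0.1), other filters, each library left out, and, chosen after seeing the data, each replicate number left out of the blocked fit. The fits were also run on simulated counts with the same dispersion for every gene and no replicate effect. Such a run checks the code and does not measure how the fits perform on these cultures. Named genes were the 10 members, Pkm, genes of the fixed lists that passed with or without the block, isozymes with a mean of at least 1 TPM, and the 5 genes most like the members' mean. Members and lists were chosen with earlier results of these data known.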

Additional observations from a re-analysis of the deposited data

How the results depend on the processing

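Under every alternative, 0 members met the study's rule, and the sign of Hk2, Pfkl, Pfkp, Aldoa, Tpi1, Gapdh and Eno1 held in all settings run. At an adjusted p under 0.05 alone, members that passed numbered 0 without the block, 2 with the replicate block, 5 with DESeq2 and the block (Hk1, Hk2, Pfkp, Gapdh and Eno1, all higher, where 14.4% of all genes passed as higher) and 4 with the block and without replicate 2 of both groups. They numbered 0 under each other setting, whether 1 library or another replicate number was left out. Among the other genes of glycolysis, its control, pyruvate, hypoxia and transport, with Pkm left out of the counts, 0 met the study's rule without the block, and 1 with the block, with DESeq2 and the block, and with the block without replicate 2. Of these lists, 10, 6, 13 and 18 genes were tested in edgeR, with Pkm among the 13. At the adjusted p alone, 0 passed without the block and 13 with it, where 0% and 23.1% of all genes passed. DESeq2 gave 1 without the block, where 824 of 15978 genes passed, and 14 with it, where 25.7% passed. With the block and without replicate 2 the count was 19, where 39.1% of all genes passed. Pkm had log2 fold changes of -2.53 with the block (adjusted p = 0.00941), -2.50 with DESeq2 (4.98e-11), -2.52 with DESeq2 and the block (5.05e-73), -2.34 without siNC replicate 2 (0.0495) and -2.63 with the block without replicate 2 (9.92e-05), and -2.80 to -2.34 with 1 library left out. The adjusted p-values of these alternatives come from edgeR unless DESeq2 is named. Over all genes, calls rose from 0 to 105 without siNC replicate 2, and from 3522 to 5940 with the block without replicate 2.

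Values and signs near 0 moved. With 1 library left out, Hk1 ranged from -0.11 (without siPkm2 replicate 2) to 0.69, Pfkp from 0.16 (without siPkm2 replicate 2) to 0.73 (without siNC replicate 2), Gpi1 from -0.12 to 0.41 (also -0.05 and -0.08) and Pgk1 from -0.12 to 0.17 (also 0.11). With the block, Pgk1 was 0.09 without replicate 1 and 0.02 without replicate 3 of both groups. Step sums ranged from -0.17 to 0.35 for phosphoglucose isomerase (also -0.14 and -0.08), from -0.11 to 0.12 for phosphofructokinase (also -0.02), from -0.02 to 0.24 for triosephosphate isomerase and from -0.13 to 0.09 for phosphoglycerate kinase (also 0.06), and the log2 ratio Pfkp over Pfkl from -0.05 to 0.55. The cause was not tested. With the pairing used as a sign-flip test, 3 pairs allow no exact p below 0.25.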

Other observations

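The genes outside the pathway lists whose log2 CPM lay closest to the members' mean log2 CPM over the 6 libraries were Gng12 (Pearson r = 0.9927), S100a1 (r = 0.9923), E2f4 (r = 0.9910), Ddx23 (r = 0.9899) and 6330562C20Rik (r = 0.9860). They were picked for this likeness out of all genes tested, over libraries that share the replicate and group differences, so the values are a description. The members' mean was 8.86, 8.97 and 8.61 in siNC replicates 1, 2 and 3 and 9.09, 9.27 and 8.89 in siPkm2, higher in siPkm2 in 3 of 3 pairs and lowest in replicate 3 of siNC. S100a1, a calcium-binding protein gene, followed it with 32.7, 41.3 and 22.6 CPM in siNC and 44.7, 60.0 and 36.3 CPM in siPkm2. Among the members themselves, Hk1 and Gpi1 lay closest to each other (r = 0.97 over the 6 libraries), and Gpi1 and Pfkl farthest apart (r = -0.48).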
